A study of Homo sapiens with 24 samples.

Results

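The genes described are 10 transcription regulators of the heart: NKX2-5, the GATA factors GATA4, GATA5 and GATA6, the MEF2 factors MEF2A, MEF2C and MEF2D, the HAND factors HAND1 and HAND2, and the coactivator MYOCD. They were chosen by name, as the rows of the deposited gene count table that map to these symbols, and each symbol matched 1 of the 62757 rows. All 10 passed the filter on low counts, which left 17724 genes for testing. The rule used no measured value.

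The counts came from bulk RNA sequencing of HES3 cells, a human embryonic stem cell line, differentiated toward heart muscle as embryoid bodies with Wnt-modulating factors for at most 14 days. All 24 libraries came from 1 reporter line, which carries GFP at NKX2-5 and mCherry at NR2F2. The libraries formed 8 groups of 3. Cells labelled as CRISPR-Cas9 knockouts of LHX2, ZNF503 or ZNF711, or edited at the control target TRAC, a T cell receptor gene, were each taken through 2 protocols labelled AM and VM. The labels do not spell out AM and VM, and they are taken here to mean atrial and ventricular. Retinoic acid was given at day 4 in the atrial protocol. What the GFP insertion does to the NKX2-5 count was not tested. The labels do not say that replicates came from separate differentiations, so p-values measure the spread between these libraries, which may be technical. In bulk RNA, fewer cells of a type and less RNA per cell cannot be told apart.

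GATA factors are zinc finger proteins that bind sites with the core letters GATA, and NKX2-5 is a homeodomain protein. In the forming heart they bind jointly with T-box factors at genes of the contractile apparatus. MEF2 proteins bind AT-rich sites in muscle genes and are held in check by class II histone deacetylases. HAND1 and HAND2 are basic helix-loop-helix proteins whose RNAs are enriched in the left and the right ventricular primordium of the mouse embryo. MYOCD does not read DNA sequence itself and works through the serum response factor SRF, which binds CArG boxes. GATA4 and GATA6 are also made in endoderm, so their RNA in a mixed culture is not specific to heart cells.

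Total counts per library were 2899786 to 7438010, with a median of 5113566. Levels are given as CPM, counts relative to the library total, with totals scaled by edgeR's trimmed-mean method (TMM). A gene was called when its adjusted p was below 0.05 in edgeR's quasi-likelihood test, with Benjamini-Hochberg adjustment over all genes tested. The targeted genes did not all follow the labels. ZNF503 RNA was higher in the libraries labelled ZNF503 than in TRAC, at 254 to 365 against 103 to 122 CPM in AM and 19.1 to 45.1 against 8.77 to 16.2 CPM in VM. Neither difference was called, at log2 fold changes of 1.40 ± 0.27 (SE) in AM (edgeR adjusted p = 0.295) and 1.42 ± 0.30 in VM. ZNF711 RNA was 31.1 to 55.6 against 47.2 to 60.0 CPM in AM and 25.8 to 33.8 against 34.5 to 47.7 CPM in VM. LHX2 was at 4.01 CPM or less in every library of its own and the TRAC groups. These groups are therefore named as labelled, and RNA level does not show whether a protein was lost. The 6 atrial marker genes summed to 524 to 792 CPM in AM and 33.6 to 138 CPM in VM, and the 5 ventricular ones to 105 to 524 CPM in AM and 579 to 1825 CPM in VM. The 10 heart muscle markers were above 0 in every group, with sums of 15103 to 29946 CPM in AM and 11694 to 41992 CPM in VM.

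Promoter sequence is shown for 4 members on which the results below turn: GATA6 and MEF2C, higher in AM, HAND1, lower in AM, and HAND2, which shares its start region with the antisense gene HAND2-AS1. The letters come from RefSeq windows of 250 bases before a gene start in GRCh38.p14, which were used for 6 members, and bases in an exon of the gene itself are left off. They are written 5′ to 3′ on the strand of the gene, with matches to the searched motifs in capitals. GATA6 lies at chr18:22169339-22169442 on the plus strand, MEF2C at chr5:88884569-88884786, HAND1 at chr5:154478265-154478477 and HAND2 at chr4:173530230-173530479, all but GATA6 on the minus strand.
GATA6: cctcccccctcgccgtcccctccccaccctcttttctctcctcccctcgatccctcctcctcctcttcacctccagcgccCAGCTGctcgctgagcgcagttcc
MEF2C: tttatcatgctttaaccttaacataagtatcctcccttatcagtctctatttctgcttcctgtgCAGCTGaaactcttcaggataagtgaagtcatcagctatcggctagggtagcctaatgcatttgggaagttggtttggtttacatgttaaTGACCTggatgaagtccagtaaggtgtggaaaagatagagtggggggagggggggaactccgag
HAND1: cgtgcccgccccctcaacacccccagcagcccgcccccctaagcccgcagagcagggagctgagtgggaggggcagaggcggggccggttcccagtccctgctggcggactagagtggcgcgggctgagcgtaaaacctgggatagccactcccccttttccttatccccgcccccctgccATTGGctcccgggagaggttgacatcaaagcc
HAND2: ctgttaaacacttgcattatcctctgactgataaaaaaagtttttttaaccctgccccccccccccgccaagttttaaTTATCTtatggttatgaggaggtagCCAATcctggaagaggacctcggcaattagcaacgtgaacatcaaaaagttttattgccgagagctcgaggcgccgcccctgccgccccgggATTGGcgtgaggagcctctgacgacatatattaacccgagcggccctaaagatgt

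The motifs were searched on both strands. Windows on chromosome 8, where GATA4 lies, were left out of the search and of the shares given here. HAND2 holds the GATA motif AGATAA, read here as its reverse complement TTATCT, which 9.17% of 35116 such windows hold. It also holds CCAAT on both strands, and HAND1 holds it on the reverse one, as do 32% of these windows in either orientation. GATA6 and MEF2C hold the E-box CAGCTG, a letter string present in 14% of windows. Nuclear receptors, such as those for retinoic acid, bind the letter string AGGTCA, present in 12.1% of windows. Of the 7 MEF2C windows, the 1 printed was chosen because it alone holds AGGTCA, as TGACCT. Its presence there was therefore fixed by the choice and is not a result. No printed window holds TATAAA (10.7% of windows), the MEF2 motif CTANNNNTAG (2.36%) or a CArG box (1.16%), which says only that these letters are not there. GENCODE places exons of HAND2-AS1 in the HAND2 stretch and exons of GATA6-AS1 in the GATA6 stretch, both on the opposite strand. A match describes letters and shows no binding.

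Levels were compared between genes as CPM per kilobase of exon (n = 12 libraries per protocol). In AM the order was GATA4 at 73.6 ± 8.8 (SD), NKX2-5 at 54.4 ± 14.6, GATA6 at 48.3 ± 6.2, HAND2 at 42.1 ± 5.2, MYOCD at 34.0 ± 2.7, MEF2A at 29.4 ± 2.6, HAND1 at 26.9 ± 16, MEF2C at 22.3 ± 3.2, MEF2D at 20.3 ± 1.7 and GATA5 at 10.6 ± 1.7. In VM NKX2-5 led with 78.1 ± 29, followed by GATA4 at 51.5 ± 11.4, HAND2 at 44.8 ± 13.8, HAND1 at 42.5 ± 7.8, MEF2A at 36.4 ± 11.6, MYOCD at 35.0 ± 11.8, MEF2D at 22.9 ± 2.5, GATA6 at 18.4 ± 5.1, MEF2C at 11.6 ± 2.8 and GATA5 at 10.7 ± 2.1. NKX2-5 stood above GATA4 in 12 of 12 VM libraries. The neighbours NKX2-5 and GATA6 in AM, which held their order in 6 of 12 libraries, and HAND2 and HAND1 in VM, in 7 of 12, did not differ beyond their spread. Nor did MEF2A and HAND1 (7 of 12), HAND1 and MEF2C (6 of 12) and MEF2C and MEF2D (8 of 12) in AM, or HAND1 and MEF2A (8 of 12) and MEF2A and MYOCD (8 of 12) in VM. The means of GATA6 and MEF2C stood lower in the order in VM than in AM, and that of HAND1 higher. GATA5 had the lowest mean in both protocols, but in VM it did not differ from MEF2C beyond their spread, MEF2C being above it in 7 of 12 libraries.

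**Figure D1:**
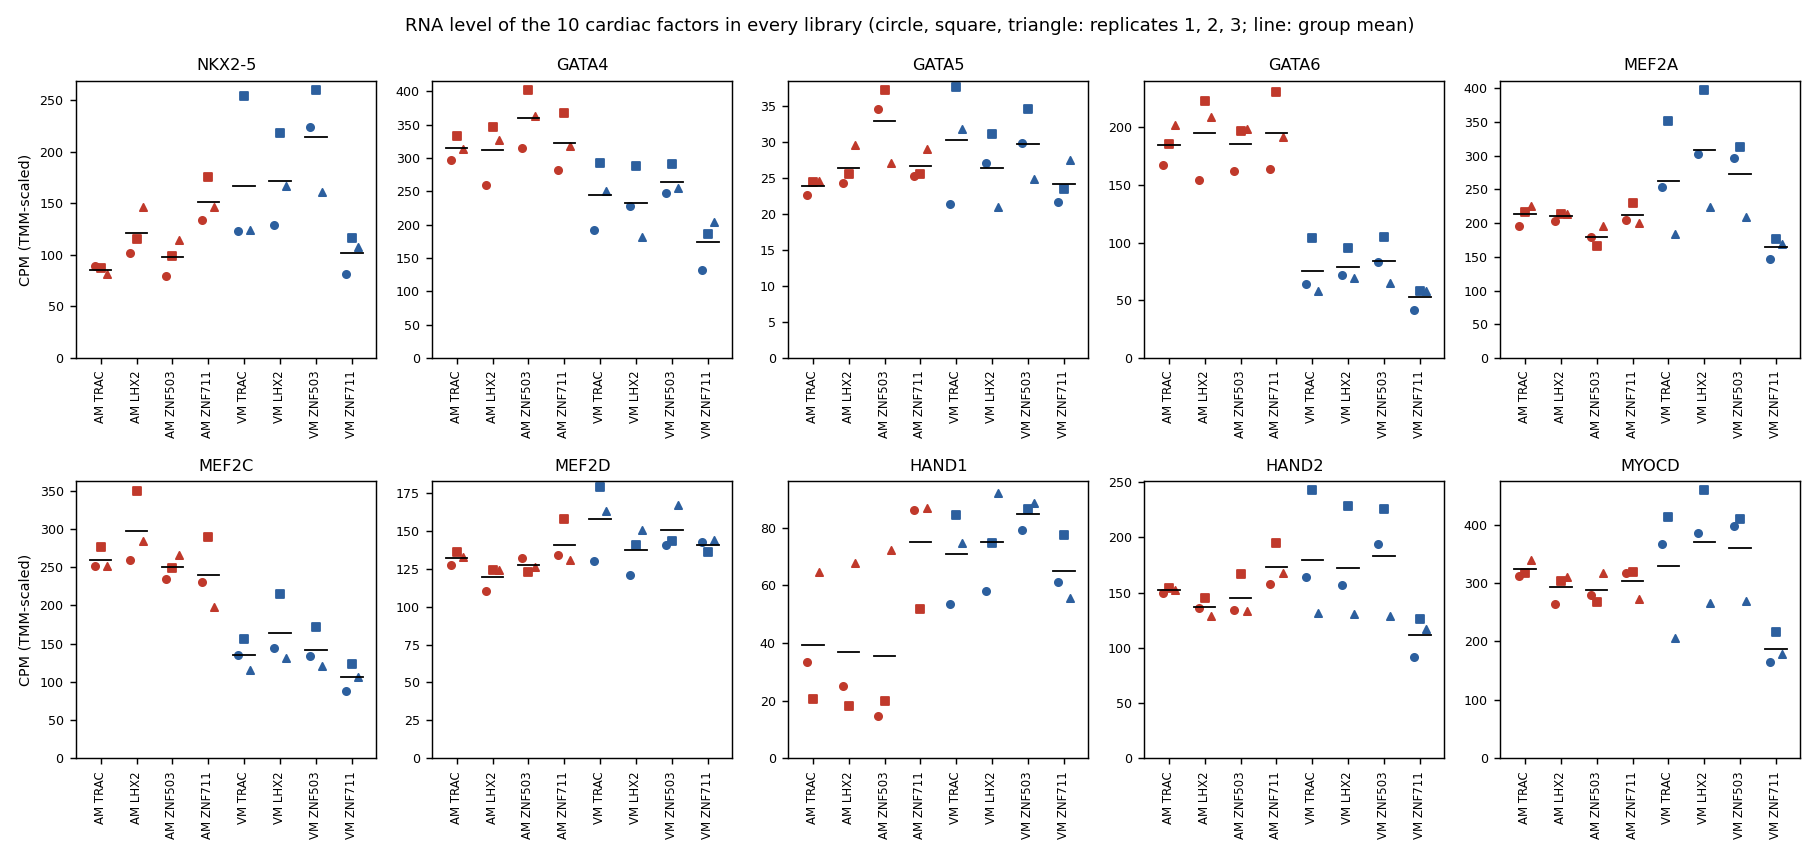
TMM-scaled CPM of each of the 10 factors in each of the 24 libraries, 1 panel per gene, with circles, squares and triangles for replicates 1, 2 and 3 and a line at the group mean. All 12 AM libraries lie above all 12 VM libraries for GATA6, and the HAND1 triangles stand above the other AM points in LHX2, ZNF503 and TRAC.

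The first comparison asks how the regulators differ between the 2 protocols, averaged over the 4 targets. GATA6, MEF2C and GATA4 were higher in AM, and NKX2-5, HAND1, MEF2A and MEF2D were higher in VM. GATA5, HAND2 and MYOCD did not pass the test. Thus 7 of 10 members were called, 3 higher and 4 lower in AM, where 34.5% of all genes tested were called, 16.8% higher and 17.6% lower. Under scaling to library size alone the share of called genes that were higher in AM moved from 48.8% to 60.3%. The median log2 fold change of the members was -0.04, against -0.01 over all genes tested.

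Markers of other cells also differed between the protocols. Of 8 fibroblast markers 4 were higher in AM and none lower, with sums of 4123 to 7291 CPM in AM and 1704 to 4905 CPM in VM. Of 10 endoderm and liver markers 2 were higher and 4 lower in AM, with sums of 239 to 2053 CPM in AM and 1104 to 19391 CPM in VM. Of the 10 heart muscle markers 6 were lower in AM and none higher. Of 7 endothelial markers 4 were higher in AM and none lower. Of 6 smooth muscle markers 2 were higher and 2 lower, and of 5 epicardial markers tested 2 were higher and 1 lower. No gene of these lists was at 0 throughout a protocol, and the part of these markers in the members' differences was not tested.

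GATA6, a regulator of outflow tract and early heart progenitors, differed most. Its level in the AM libraries was 154 at the lowest, 194 at the median and 231 CPM at the highest, against 41.6, 67.2 and 105 CPM in VM. The lowest AM library stood above the highest VM library, a separation seen in either direction for 4.24% of genes. The log2 fold change was 1.41 ± 0.11 (SE), or 2.66-fold higher in AM (adjusted p = 1.17e-10, edgeR quasi-likelihood test). The gene lies at chr18:22169443-22202528 on the plus strand (ENSG00000141448.11, GENCODE 29 on GRCh38).

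GATA6 also differed within each target taken alone. In TRAC its CPM in replicates 1, 2 and 3 was 168, 186 and 202 in AM and 64.0, 104 and 57.6 in VM. The VM value of replicate 2 was the nearest to AM and still below every AM library. Its log2 fold changes were 1.30 for TRAC, 1.31 for LHX2, 1.14 for ZNF503 and 1.89 for ZNF711 (edgeR adjusted p = 0.000135, 0.00015, 0.000641 and 1.46e-06). The antisense gene GATA6-AS1 differed in the same direction in the average, with means of 43.2 and 23.2 CPM and a log2 fold change of 0.96 ± 0.17 (edgeR adjusted p = 0.000116). The sources used here do not say whether counting used strand, so reads of GATA6 and GATA6-AS1 cannot be told apart where they overlap.

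GATA4 (ENSG00000136574.19), which acts with NKX2-5 at contractile genes, differed less. Its CPM was 260 at the lowest, 322 at the median and 402 at the highest in AM, against 132, 237 and 293 in VM. The ranges overlapped. AM exceeded VM by 0.53 ± 0.09 on the log2 scale (edgeR adjusted p = 4.77e-05). Within targets GATA4 was called in ZNF711 alone, at 0.89 ± 0.18 (adjusted p = 0.0017, edgeR). In TRAC, LHX2 and ZNF503 it was 0.36, 0.42 and 0.44, and with the replicate number as a block these became 0.38, 0.42 and 0.44 with adjusted p of 0.0188, 0.0108 and 0.00731. GATA5 (ENSG00000130700.7, chr20:62463497-62475970, minus strand), a factor of endocardial cells, was at 20.9 to 37.6 CPM in all 24 libraries, and its log2 fold change of -0.01 ± 0.10 did not pass the test (adjusted p = 0.935, edgeR).

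MEF2C (ENSG00000081189.17, chr5:88717117-88904257, minus strand), the MEF2 factor of the anterior second heart field and early myocardium, was higher in AM. Its CPM was 198 to 349 in AM and 88.1 to 215 in VM, and 1 VM library, LHX2 replicate 2, reached the AM range. The log2 fold change was 0.95 ± 0.09, or 1.93-fold (edgeR adjusted p = 1.03e-08). MEF2C was called in every target, with log2 fold changes of 0.94 for TRAC, 0.86 for LHX2, 0.81 for ZNF503 and 1.17 for ZNF711 (edgeR adjusted p = 0.00107, 0.00285, 0.00451 and 0.000111). Without replicate 3 in every group the value in ZNF503 was 0.67 with an edgeR adjusted p of 0.0617. Its antisense neighbour MEF2C-AS1 was at 4.99 and 6.42 CPM and did not pass the test (log2 fold change -0.40, edgeR adjusted p = 0.300). Reads of MEF2C and MEF2C-AS1 likewise cannot be told apart where the genes overlap.

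The other MEF2 genes, MEF2A (ENSG00000068305.19, chr15:99565417-99716466, plus strand) and MEF2D (ENSG00000116604.19, chr1:156463727-156500828, minus strand), pointed the opposite way in the average, with smaller differences. MEF2A overlaps LYSMD4 on the opposite strand. MEF2A was at 166 to 229 CPM in AM and 147 to 398 CPM in VM, and MEF2D at 110 to 158 CPM in AM and 121 to 179 CPM in VM. The AM libraries lay inside a wider VM range for MEF2A. The log2 fold changes were -0.27 ± 0.10 for MEF2A and -0.17 ± 0.06 for MEF2D, with adjusted p of 0.0323 and 0.0357 in edgeR's test. Both calls are close to the threshold: leaving out 1 library ended the MEF2A call for 10 of 24 libraries and the MEF2D call for 16 of 24, with the weakest values, -0.20 and -0.14 (edgeR adjusted p 0.0988 and 0.098), without VM TRAC replicate 2. Within targets MEF2A was not called, at -0.30 in TRAC, -0.55 in LHX2, -0.60 in ZNF503 and 0.37 in ZNF711. In ZNF711 all AM libraries lay above all VM libraries, a separation seen in either direction for 32.9% of genes. With a replicate block MEF2A was called at -0.52 in LHX2 and -0.58 in ZNF503 (edgeR adjusted p = 0.0385 and 0.0235). Of 6 fits with 1 library left out, 1 called it in LHX2, at -0.73 without VM LHX2 replicate 3 (edgeR adjusted p = 0.0228). In ZNF503 also 1 of 6 did, at -0.76 without VM ZNF503 replicate 3 (edgeR adjusted p = 0.0193). The other 5 in each target did not, with edgeR adjusted p up to 0.452 and 0.22. Each library left out for a call held the lowest VM value of MEF2A in its target. The share of all genes called in these fits is not given.

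NKX2-5 (ENSG00000183072.10, chr5:173232109-173235357, minus strand), the homeodomain factor that marks cardiac progenitors and heart muscle, was lower in AM. Its CPM was 79.2 at the lowest, 108 at the median and 175 at the highest in AM, against 81.2, 145 and 259 in VM. Averaged over targets, AM differed from VM by -0.51 ± 0.12 on the log2 scale (edgeR adjusted p = 0.00275). The average hides opposite signs. In TRAC the 3 AM libraries held 88.8, 87.3 and 80.8 CPM and the 3 VM libraries 123, 254 and 124 CPM, so that all AM values were below all VM values. The log2 fold change was -0.96 ± 0.25 in TRAC and -1.14 ± 0.25 in ZNF503 (edgeR adjusted p = 0.0134 and 0.0041), and -0.50 ± 0.25 in LHX2, which did not pass (adjusted p = 0.268). In ZNF711 it was 0.58 ± 0.25, with all AM libraries above all VM libraries, and did not pass either (edgeR adjusted p = 0.136). With a replicate block in each protocol NKX2-5 was called there, at 0.58 (edgeR adjusted p = 0.0202). The TRAC call rested on 3 libraries: it was -0.97 without AM replicate 2, -0.92 without AM replicate 3 and -0.52 without VM replicate 2, with edgeR adjusted p of 0.0518, 0.0589 and 0.137. It also ended with only the AM and VM TRAC groups in the fit, where 6.44% of all genes were called.

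HAND1 (ENSG00000113196.3, chr5:154474972-154478264, minus strand) spread widely between AM libraries. Its CPM in AM replicates 1, 2 and 3 was 33.3, 20.5 and 64.5 for TRAC and 24.9, 18.0 and 67.8 for LHX2. The libraries labelled ZNF503 held 14.6, 19.7 and 72.2 CPM, and those labelled ZNF711 held 86.1, 51.8 and 86.9 CPM. In VM all 12 values lay between 53.4 and 92.2 CPM. Replicate 3 was above the mean of replicates 1 and 2 in AM in 4 of 4 targets, by 0.33 to 2.07 on the log2 scale. The averaged log2 fold change was -0.72 ± 0.26 (edgeR adjusted p = 0.0416), and leaving out 1 library ended the call for 19 of 24, with values of -0.99 without AM ZNF503 replicate 3 to -0.63 without AM ZNF503 replicate 1. Within targets HAND1 was not called, at -0.85 for TRAC, -0.996 for LHX2, -1.26 for ZNF503 and 0.21 for ZNF711 in edgeR's fit. Without replicate 3 in every group it was -1.36 for TRAC, -1.63 for LHX2 and -2.27 for ZNF503, with edgeR adjusted p of 0.00455, 0.00155 and 3.57e-05. Of all genes, 8.72%, 7.47% and 7.99% were called there. That setting was chosen after the data were seen and leaves out the highest AM value of HAND1 in each of these targets. A larger fall follows from that choice, so these p-values add no support.

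HAND2 (ENSG00000164107.9, chr4:173524969-173530229, minus strand) and MYOCD (ENSG00000141052.18, chr17:12665890-12768949, plus strand) showed no averaged difference that passed the test. HAND2 was at 129 to 195 CPM in AM and 92.1 to 243 CPM in VM, and MYOCD at 265 to 340 CPM in AM and 165 to 459 CPM in VM. For both, the AM values lay within the range of VM. The log2 fold changes were -0.07 ± 0.11 and 0.01 ± 0.10, with adjusted p of 0.668 and 0.975 in edgeR's test. Both averages hide opposite signs. HAND2 was at -0.24 in TRAC, -0.33 in LHX2, -0.34 in ZNF503 and 0.63 in ZNF711, and was called in no target. MYOCD was at -0.02, -0.34, -0.32 and 0.70 in the same order, and was called in ZNF711 alone. HAND2-AS1, transcribed from the opposite strand of the HAND2 start region, was lower in AM, at 84.5 against 138 CPM (log2 fold change -0.66 ± 0.16, edgeR adjusted p = 0.00285). As for GATA6, reads of HAND2 and HAND2-AS1 cannot be told apart where they overlap. This limit also holds for the HAND1 to HAND2 ratio below. In VM the MYOCD level of replicate 3 was below the mean of replicates 1 and 2 in 4 of 4 targets, by 0.09 to 0.92 on the log2 scale.

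**Figure D2:**
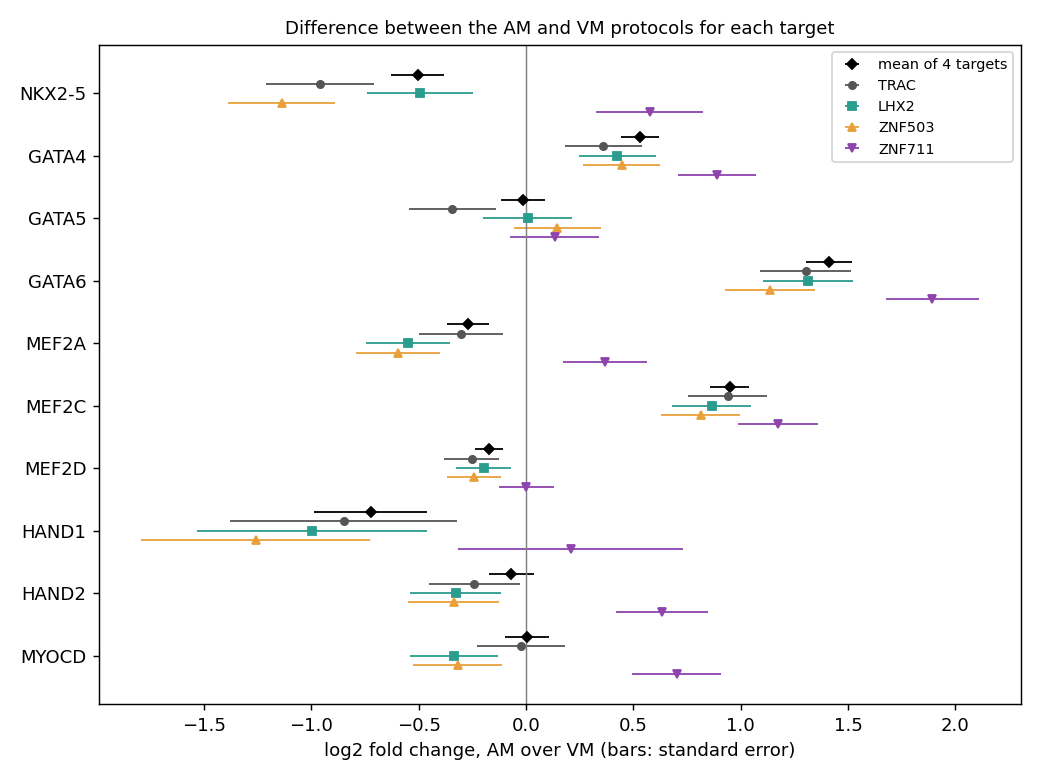
Log2 fold change of AM over VM for each factor, averaged over the 4 targets and within each target, with bars of 1 standard error. GATA6 and MEF2C lie to the right of 0 in every target, while NKX2-5, MEF2A, HAND1, HAND2 and MYOCD lie to the right in ZNF711 and to the left in the other targets.

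Counted by target, the members called between AM and VM were 3 of 10 in TRAC, where 11.3% of genes were called, 2 in LHX2 (8.56%), 3 in ZNF503 (8.86%) and 4 in ZNF711 (13.2%). All 4 in ZNF711 were higher in AM: GATA4, GATA6, MEF2C and MYOCD. With a replicate block the counts were 4, 4, 6 and 5, where 19.4%, 15.7%, 14.9% and 23.4% of all genes were called, HAND1 joining in ZNF503 at -1.45 (edgeR adjusted p = 0.0469) and HAND2 in ZNF711 at 0.63 (adjusted p = 0.00161). The AM and VM libraries did not overlap for GATA6 and MEF2C in any of the 4 targets, while across all genes this held for 26.1% under TRAC, 23.9% under LHX2, 23.5% under ZNF503 and 32.9% under ZNF711. MYOCD, the SRF coactivator, was at 318, 318 and 273 CPM in AM ZNF711 and 165, 215 and 179 CPM in VM ZNF711. All AM values were above all VM values, with a log2 fold change of 0.70 ± 0.21 (edgeR adjusted p = 0.0258). That call ended, with values of 0.65 to 0.68 and adjusted p of 0.0754 to 0.0907, when AM ZNF711 replicate 1 or 2 or VM ZNF711 replicate 1 or 3 was left out.

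Ratios of related factors within a library need no scaling between libraries. For GATA6 over GATA4 the log2 count ratio was -0.78 ± 0.13 (SD, n = 12) in AM and -1.67 ± 0.21 in VM. All 12 AM values were above all 12 VM values, and the difference was 0.88 (exact permutation test exchanging AM and VM labels within each target, two-sided, p = 1.25e-05, the smallest that test can give, 1.875e-05 after Benjamini-Hochberg adjustment over 3 ratios). For MEF2C over MEF2A the ratio was 0.35 ± 0.19 in AM and -0.85 ± 0.20 in VM, again with no overlap and a difference of 1.20 (same exact test, p = 1.25e-05, adjusted 1.875e-05). A MEF2C to MEF2A ratio near or above 0 was thus found in AM and below 0 in every VM library. The ratios compare counts without regard to length, so their sign does not rank the genes.

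For HAND1 over HAND2 the log2 ratio was -1.96 ± 0.95 in AM and -1.09 ± 0.44 in VM. The ranges overlapped, from -3.19 to -0.87 in AM and -1.62 to -0.50 in VM. The difference was -0.87 (exact permutation test, two-sided, p = 0.0095125, unchanged by adjustment over 3 ratios). It was -0.84 without replicate 1 and -0.60 without replicate 2, with exact adjusted p of 0.0772 and 0.136, and -1.18 without replicate 3 (0.00154). Of 12 pairs of AM and VM libraries with the same target and replicate number, 11 had a difference below 0 and 1 above. Exchanging labels only within these pairs, the replicate block, gave an exact adjusted p of 0.000977 with all replicates. In the same paired test the exact adjusted p was 0.0156 without replicate 1 and 0.0156 without replicate 2, an alternative added after the data were seen. The 12 pairs are not independent, since libraries of the same replicate number deviated together across targets. These paired p-values take the pairs as independent and may be too small.

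**Figure D3:**
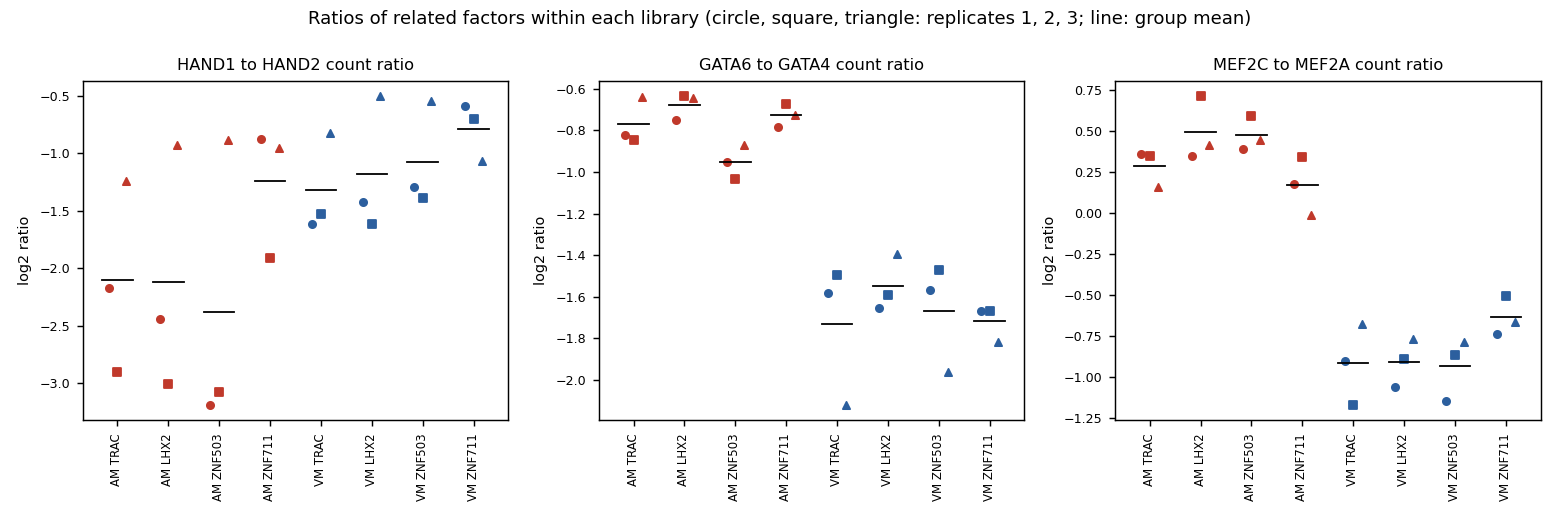
Log2 ratio of the counts of HAND1 to HAND2, GATA6 to GATA4 and MEF2C to MEF2A in each library, with circles, squares and triangles for replicates 1, 2 and 3 and a line at the group mean. AM and VM separate without overlap for GATA6 to GATA4 and MEF2C to MEF2A, and overlap for HAND1 to HAND2.

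The next comparison asks how the members differ between cells labelled ZNF711 and TRAC under each protocol. In VM all 10 members were lower in ZNF711, with a median log2 fold change of -0.50 against -0.01 over all genes. No member was called in the main fit, which has no replicate term, where 0.0169% of genes were. With a replicate block 4 were called, where 2.27% of all genes were, and with a block in each protocol 7, where 8.38% were. At an unadjusted p below 0.05 there were 6 members and 1666 genes in edgeR's main fit. DESeq2 called 1 member, where it called 0.429% of all genes. The control samples are the same for every member, so the 10 values are not independent of each other.

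MYOCD had the lowest p of the 10. Its CPM was 366, 413 and 206 in VM TRAC and 165, 215 and 179 in VM ZNF711. Only the third TRAC library reached the ZNF711 range. The log2 fold change was -0.82 ± 0.21 (edgeR adjusted p = 0.198), and DESeq2 gave -0.83 with an adjusted p of 0.0359. With a replicate block it was -0.79 (edgeR adjusted p = 0.0388).

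HAND2 and MEF2A were lower in every VM ZNF711 library than in every VM TRAC library, and so was NKX2-5; across all genes 10.1% did not overlap between these groups. HAND2 held 164, 243 and 132 CPM in TRAC and 92.1, 126 and 117 CPM in ZNF711 (log2 fold change -0.68 ± 0.21, edgeR adjusted p = 0.28). MEF2A held 254, 352 and 184 CPM against 147, 176 and 169 CPM (-0.68 ± 0.20, adjusted p = 0.223). NKX2-5 held 123, 254 and 124 CPM against 81.2, 116 and 108 CPM (-0.71 ± 0.25, edgeR adjusted p = 0.33). The gap between groups was narrow in each case, since the lowest TRAC library lay close to the highest ZNF711 library. The replicate block called 4 members in this comparison, where it called 2.27% of all genes: GATA4 at -0.49, MEF2A at -0.65, HAND2 at -0.65 and MYOCD at -0.79 (edgeR adjusted p = 0.022, 0.0445, 0.0155 and 0.0388). Without VM TRAC replicate 3 alone, 3 were called, MEF2A at -0.90, HAND2 at -0.88 and MYOCD at -1.08 (edgeR adjusted p = 0.0133, 0.0249 and 0.00564). The share of all genes called in that fit is not given here.

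Markers of other cells moved with these values. The 10 heart muscle markers, all of them lower in VM ZNF711 than in VM TRAC by the fit with none called, summed to 15504 to 41992 CPM in VM TRAC and 11694 to 17580 CPM in VM ZNF711. The 10 endoderm and liver markers, all of them higher with none called, summed to 2454, 2273 and 18268 CPM in VM TRAC replicates 1, 2 and 3 and to 6838, 13570 and 19391 CPM in VM ZNF711. No gene of either list was at 0 throughout a group. The 8 fibroblast markers summed to 1704 to 4905 CPM in VM TRAC and 3911 to 4475 CPM in VM ZNF711. The 5 markers of pluripotent cells summed to 97.1 to 217 CPM in VM TRAC and 295 to 370 CPM in VM ZNF711, and the 6 atrial markers to 33.6 to 104 and 119 to 138 CPM. Neither pair of ranges overlapped, and no gene of these lists was called. By the fit, 3 of the 4 pluripotency markers tested and all 6 atrial markers were higher in VM ZNF711. The part of these markers in the members' differences was not tested.

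**Figure D4:**
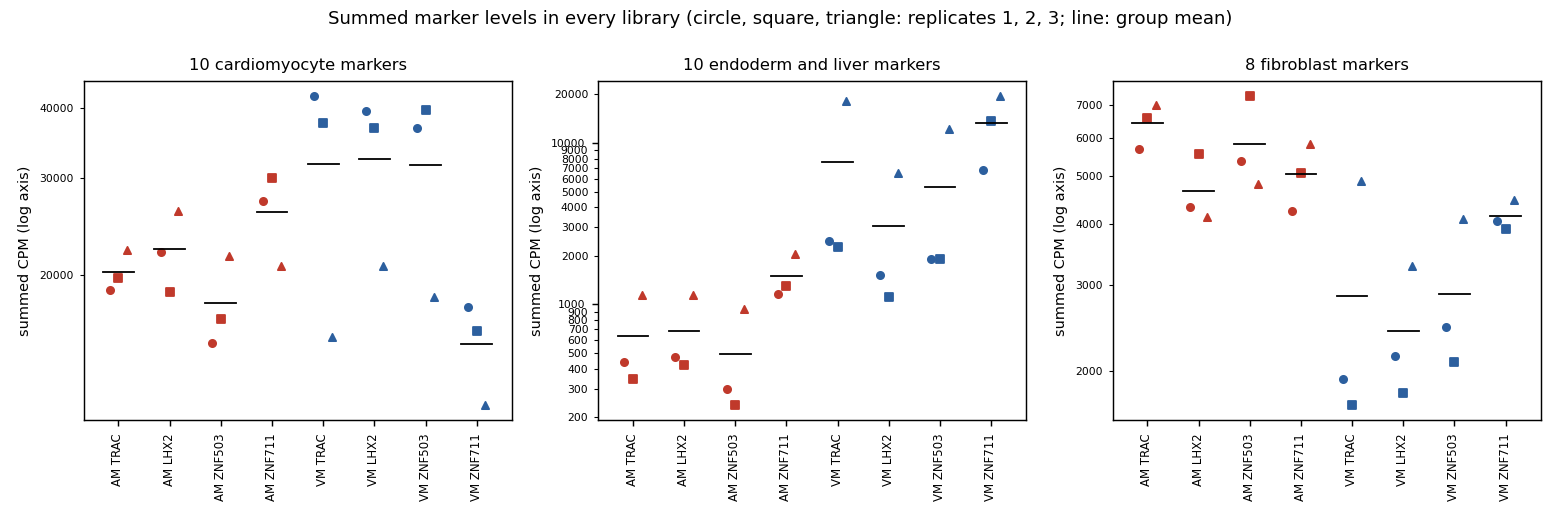
Summed CPM of 10 heart muscle, 10 endoderm and liver and 8 fibroblast markers in each library on log axes, with a line at the group mean. In VM the triangles, replicate 3, stand apart from replicates 1 and 2 in TRAC, LHX2 and ZNF503, low for heart muscle and high for endoderm markers, and VM ZNF711 lies near those triangles.

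In AM, 7 of 10 members were higher in ZNF711 than in TRAC and none was called, where 0% of genes were. At an unadjusted p below 0.05 there were 1 member, NKX2-5, and 618 genes in edgeR. NKX2-5 held 88.8, 87.3 and 80.8 CPM in AM TRAC and 133, 175 and 146 CPM in AM ZNF711. Every ZNF711 library was above every TRAC library, as for 11.7% of genes in either direction. This gave a log2 fold change of 0.82 ± 0.25 (edgeR adjusted p = 1). With only these groups in the fit it was 0.82 with an edgeR adjusted p of 0.0124. HAND1, at 33.3, 20.5 and 64.5 CPM in TRAC and 86.1, 51.8 and 86.9 CPM in ZNF711, overlapped, with a log2 fold change of 0.93 ± 0.53 (edgeR adjusted p = 1). The heart muscle markers summed to 18824 to 22220 CPM in AM TRAC and 20784 to 29946 CPM in AM ZNF711, and the endoderm markers to 346 to 1140 and 1164 to 2053 CPM; their part was not tested.

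The difference between the 2 effects was tested as an interaction, the ZNF711 effect in AM minus that in VM. It was above 0 for 10 of 10 members, with a median of 0.63 against 0.02 over all genes, and called none, where 0.00564% of genes were called. NKX2-5 had an interaction of 1.54 ± 0.35 (edgeR adjusted p = 0.389), and HAND2 one of 0.88 ± 0.30 (edgeR adjusted p = 0.589). With a separate replicate block in each protocol, which called 2.54% of all genes, 4 members were called: NKX2-5 at 1.47, MEF2A at 0.62, HAND2 at 0.82 and MYOCD at 0.67 (edgeR adjusted p = 0.00428, 0.0291, 0.00277 and 0.0171). Without VM TRAC replicate 3 the NKX2-5 value was 1.72 (edgeR adjusted p = 0.0455). The 10 heart muscle markers were also above 0 in 10 of 10, with a median interaction of 1.25.

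**Figure D5:**
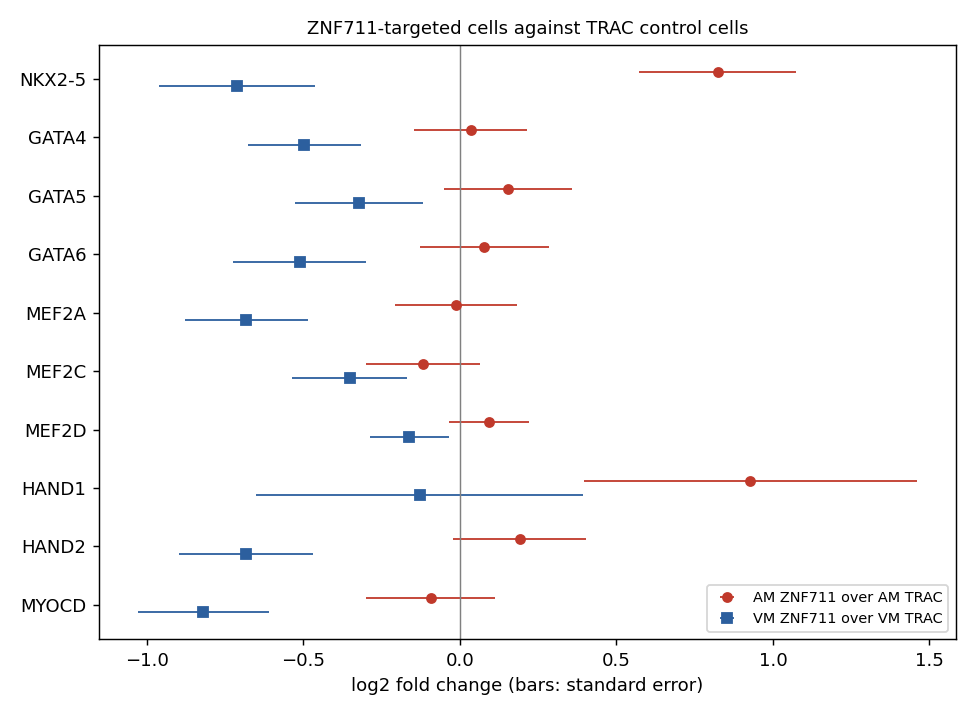
Log2 fold change of ZNF711 over TRAC libraries for each factor, in AM (circles) and in VM (squares), with bars of 1 standard error. All VM values lie below 0, NKX2-5 and HAND1 lie highest in AM, and no value was called in edgeR's test.

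Cells labelled LHX2 or ZNF503 gave no called member in either protocol or interaction, and 0% of genes were called in these 6 comparisons. The members' log2 fold changes against TRAC ran from -0.15 to 0.50 in AM LHX2, from -0.20 to 0.27 in VM LHX2, from -0.24 to 0.46 in the AM libraries labelled ZNF503 and from -0.07 to 0.36 in the VM ones. At an unadjusted p below 0.05 in edgeR there was 1 member, GATA5 in AM ZNF503, at 0.46 ± 0.20 (adjusted p = 1). NKX2-5 in AM LHX2 had the highest value, 0.50 ± 0.25 (edgeR adjusted p = 0.66). Its CPM was 101, 115 and 146 there and 88.8, 87.3 and 80.8 in AM TRAC. The number of genes at an unadjusted p below 0.05 was 1372 in AM LHX2, 463 in VM LHX2, 309 in AM ZNF503, 274 in VM ZNF503, 660 in the LHX2 interaction and 346 in the ZNF503 interaction.

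Other genes of the same pathways were taken as fixed lists and compared between AM and VM in the average. There 16.8% of all genes tested were called higher in AM and 17.6% lower. Of 18 partners, 10 were higher in AM and 2 lower, with a median log2 fold change of 0.23 against -0.01 over all genes. ISL1, a LIM homeodomain factor of the second heart field, was at 119 and 36.0 CPM in AM and VM (1.72 ± 0.13, edgeR adjusted p = 2.46e-10), and TBX5, the T-box partner of GATA4 and NKX2-5, at 148 and 63.6 CPM (1.26 ± 0.10, adjusted p = 7.1e-10). TBX20, another T-box factor of the same complexes, was lower at 132 and 473 CPM (-1.81 ± 0.16, edgeR adjusted p = 9.35e-09), as was HDAC5, a deacetylase that binds MEF2 (-0.31 ± 0.08, adjusted p = 0.00243). Of 24 target genes of these factors, 3 were higher and 15 lower in AM, with a median of -0.75. All 10 heart muscle markers are among these 24, so the counts largely repeat those of the markers. Taken by targeted gene, the median of the 24 was -0.88 for TRAC, -0.92 for LHX2, -1.36 for ZNF503 and 0.23 for ZNF711. In ZNF711 5 were higher and 2 lower. The difference between the targeted genes was not tested. The ventricular myosin genes MYL2 and MYH7 fell most, at -6.88 and -3.74 in the fit, and MYL2 rests on few reads at a mean of 4.12 CPM in VM. TNNI3, the adult cardiac troponin I, and ATP2A2, the calcium pump of the sarcoplasmic reticulum, rose most, at 1.51 and 1.04. Of 12 relatives from the same families 7 were expressed enough to test, 3 higher and 2 lower, among them NKX2-3 at 1.17 and TWIST1 at 0.66, and NKX2-6 at -1.19 (19.4 against 45.2 CPM) and MRTFA at -0.29.

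Genes whose profile over the 8 groups was most like that of a called member were found by the root mean square difference of centred mean log2 CPM among 11418 expressed genes, as a description over 8 points that share these libraries. For GATA6, RTL5 and TBX5 were nearest, at 0.12 and 0.13, where the GATA6 profile itself had a root mean square of 0.73. For GATA4 it was DACT3 at 0.05, for MEF2A the ankyrin gene ANK2 at 0.05, for MEF2D the plectin gene PLEC at 0.03, for NKX2-5 the sodium pump subunit ATP1B1 at 0.15 and for HAND1 the atrial light chain gene MYL7 at 0.13. For MEF2C it was PCDHA4 at 0.04, a protocadherin that shares exons with its cluster and whose count is therefore uncertain. Among the members themselves HAND2 and MYOCD were nearest to each other, at 0.13.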

How the data were processed

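The deposited values were whole-number read counts per gene for 24 libraries, made by the authors and read here as raw counts. STAR and GRCh38 are named in the submitters' processing notes, with no role given. The counting program, its strand setting and the annotation release are not given in the sources used here, and the labels conflict on whether RNA was selected by polyA or by ribosomal RNA removal. All 24 columns matched a library by its label and 0 were left over.

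The counts were tested with edgeR 4.0.16 (R 4.3.3): TMM scaling, filterByExpr, robust quasi-likelihood fits with 1 mean per group over all 24 libraries, 16 residual degrees of freedom, and Benjamini-Hochberg adjustment over 17724 genes in each of 14 comparisons. The biological coefficient of variation was 25.0%. Depths of 2899786 to 7438010 counts set the precision, and 3 counts, the smallest amount taken as detected, were far below every member's level. DESeq2 1.42.0, other scalings and filters, replicate blocks, fits of only the groups compared and leaving out each library were alternatives. The fit was tested on simulated data first. Leaving out replicate 3 everywhere and leaving ZNF711 out of the average were chosen after seeing the data. Ratios used log2 counts with 0.5 added and exact permutation tests. Lengths and positions came from GENCODE 29, promoter letters from RefSeq in GRCh38.p14.

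Replicates of the same number deviated together from their group means, with correlations of 0.125 to 0.786 over 11428 genes in every pair of groups compared. The replicate blocks therefore take the numbers to pair the libraries. The main fit and the main exact test of the ratios hold no replicate term, so their calls ignore this pairing. The exact tests, paired or not, also take libraries of the same number from different targets as independent. What a number stands for is not stated.

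The members, lists and tests were chosen with earlier results of these data known. All members are named. Of each other list, at most the 2 called genes that rose and the 2 that fell most were named, and of genes alike to a called member the nearest 3 were found, of which those printed are the nearest 1 or 2. Values of other markers follow lists for heart muscle, endoderm, fibroblast, endothelial, smooth muscle, epicardial, pluripotent, atrial and ventricular cells. Not every list is given for every comparison.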

Additional observations from a re-analysis of the deposited data

Results flagged for a closer look

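NKX2-5 differed between ZNF711 and TRAC libraries in opposite directions under the 2 protocols: all 3 AM ZNF711 libraries lay above all 3 AM TRAC libraries, and all 3 VM ZNF711 libraries below all 3 VM TRAC libraries. The AM effect minus the VM effect was 1.54 ± 0.35 (SE) on the log2 scale, with an adjusted p of 0.389 in edgeR's quasi-likelihood test over all genes. HAND2 followed the same pattern, with a difference of 0.88 ± 0.30 (edgeR adjusted p = 0.589). Neither passed the adjustment over all genes. With a replicate block in each protocol both were called, NKX2-5 at 1.47 and HAND2 at 0.82 (edgeR adjusted p = 0.00428 and 0.00277), where 2.54% of all genes were. The sum of the heart muscle markers was higher in 2 of 3 AM ZNF711 libraries than in any AM TRAC library.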

How the results depend on the processing

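The calls of GATA6 and MEF2C higher in AM in the average, and of GATA4 and NKX2-5 there, held in every alternative run. In the average, scaling to library size alone left 4 members called, with 35.5% of all genes, and leaving out 1 library gave 4 to 7. The share of all genes called stands in brackets, except for fits with 1 library left out, where it is not given. With the replicate block the calls were 4 in LHX2 (15.7%), 6 in ZNF503 (14.9%) and 4 in VM ZNF711 against TRAC (2.27%). With a block in each protocol they were 5 in TRAC (23.7%), 5 in LHX2 (19.5%), 7 in ZNF503 (18.9%), 7 in ZNF711 (27.8%), 1 in AM ZNF711 against TRAC (0.53%), 7 in VM ZNF711 against TRAC (8.38%) and 4 in its interaction (2.54%). With no filter they were 4 in LHX2 (4.92%), 5 in ZNF503 (4.87%), 2 in AM ZNF711 (0.255%) and 4 in VM ZNF711 against TRAC (1.27%) and 2 in its interaction (0.538%). DESeq2 gave 1 in VM ZNF711 against TRAC (0.429%) and 1 in its interaction (0.0564%), and only the groups compared gave 1 in AM ZNF711 against TRAC (0.112%). Fitting only the groups compared also ended the NKX2-5 call between AM and VM in TRAC (6.44%). Without replicate 3 in every group the counts were 5 in LHX2 (7.47%), 5 in ZNF503 (7.99%), 3 in VM ZNF711 against TRAC (4.97%) and 1 in its interaction (1.61%). With 1 library left out they were 0 to 3 in VM ZNF711 against TRAC and 0 to 1 in its interaction, the highest in both without VM TRAC replicate 3. In the other comparisons with TRAC the count was 0 with any 1 library left out. The HAND1 to HAND2 ratio difference was -1.18 to -0.60 with 1 replicate number left out. Why the counts moved was not tested.

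Values that were not called changed sign. In the average GATA5 was 0.065 and HAND2 0.0064 with library size alone, and MYOCD was -0.0106 with relative log expression scaling and -0.0106 with DESeq2, -0.178 without replicate 3 and -0.227 without ZNF711. MYOCD in TRAC was 0.0233 with library size alone, 0.0114 with the replicate block and 0.0254 with a block in each protocol. GATA5 in LHX2 was -0.00629 with no filter, -0.00415 at 1 CPM in 3 libraries and -0.223 without replicate 3. MEF2D in ZNF711 was -0.0122 with relative log expression scaling, -0.0111 with DESeq2 and -0.00159 with a block in each protocol, and HAND1 there -0.0310 without replicate 3. Without replicate 3, MEF2A and MYOCD in AM ZNF711 against TRAC were 0.0609 and 0.00483, and HAND1 in VM ZNF711 against TRAC 0.0259.

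With 1 library left out, values crossed 0 for GATA5 (-0.0625 to 0.0404), HAND2 (-0.109 to 0.0107) and MYOCD (-0.0482 to 0.0637) in the average, HAND2 (-0.418 to 0.0450) and MYOCD (-0.267 to 0.180) in TRAC, GATA5 in LHX2 (-0.130 to 0.146) and MEF2D in ZNF711 (-0.0761 to 0.0543). In AM ZNF711 against TRAC they did for GATA4 (-0.0810 to 0.123), GATA6 (-0.0682 to 0.192), MEF2A (-0.0844 to 0.0273), MEF2C (-0.286 to 0.00421) and MEF2D (-0.00565 to 0.145).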
